A study of Mus musculus with 4 samples.

Results

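The mitochondrial carriers of the Slc25 family were examined in brain endothelial cells (ECs) that lack the forkhead transcription factor FOXQ1. Every gene whose symbol is Slc25a followed by a number was taken as a member, which gave 36 of the 12693 genes in the deposited table. The GENCODE M21 annotation names 47 such genes, and the other 11 (*Slc25a2*, *Slc25a15*, *Slc25a21*, *Slc25a27*, *Slc25a31*, *Slc25a33*, *Slc25a41*, *Slc25a43*, *Slc25a47*, *Slc25a48* and *Slc25a54*) were not analysed here. All 36 passed the filter on low values, which asked for a mean of 10 normalized counts or more. A normalized count is the number of reads on a gene divided by a size factor of its sample.

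The inner mitochondrial membrane is nearly closed to ions and metabolites, and most carriers of this family are proteins that move substrates across it. They bring ADP, phosphate, fatty acid derivatives, amino acids, iron and cofactors to the matrix and return ATP, citrate and aspartate to the cytosol, mostly by exchanging one substrate for another. All are encoded in the nucleus, and a few members sit in the peroxisomal or the outer mitochondrial membrane instead. In brain ECs, mitochondria serve biosynthesis and redox balance as well as respiration.

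RNA was sequenced from 2 wild-type and 2 *Foxq1* cKO samples at embryonic day 18 (E18). The labels give the strain of all 4 as C57BL/6, the tissue as brain and the deleted genotype as FOXQ1fl/fl;Tie2-Cre, in which Cre is driven by *Tie2*, a gene of ECs that is also active in part of the blood lineage. The study's methods name littermates without Cre as the controls of this line. Whether these carried floxed alleles, and whether a sample is 1 embryo or a pool, is not given in the sources used here, so p-values measure the spread between these samples, which may be technical. According to the study's methods the cells were sorted from the cerebral cortex by CD31, a surface protein of ECs. The labels name 2 µg of total RNA as input, whereas the study names Smart-seq2, a protocol for small amounts of RNA.

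The samples held between 15827166 and 21466436 reads on listed genes. The targeted gene, *Foxq1*, had 353 and 297 normalized counts in wild-type ECs against 5.44 and 32.6 in *Foxq1* cKO ECs, a log2 fold change of -4.47 (adjusted p = 0.857 from limma). All 10 endothelial markers searched for were listed, with summed levels of 372794 to 395788 normalized counts in wild-type and 327242 to 372722 in *Foxq1* cKO ECs. Of these 10 markers, 8 had a log2 fold change below 0, as had 6149 of the 12472 genes tested. In 5 of the 10 both *Foxq1* cKO samples were below wild-type and in 1 both were above, beside 18% of all genes tested in each direction. As lower, 2 passed an unadjusted p of 0.05 in limma (*Flt1* and *Ly6c1*), beside 3.05% of all genes tested. Transcripts of other cells were present too. For 6 of 7 pericyte markers the sums were 148715 to 150882 in wild-type and 142236 to 154457 in *Foxq1* cKO ECs, and for 7 of 8 erythroid markers they were 15769.7 to 20859 and 16022 to 20516. As for the endothelial list, the sums were lower in both *Foxq1* cKO samples for the 6 microglial markers (4581 to 5099.6 against 6377 to 6613), the 6 markers of radial glia and astrocytes (16033 to 16737 against 19358 to 20438) and the 6 neuronal markers (4135 to 5429 against 5561 to 5855). In the microglial list 3 of the 6 genes had a log2 fold change above 0 (*Ptprc*, *Tmem119* and *Aif1*). So had 2 of the 6 radial glia and astrocyte genes (*Aqp4* and *Fabp7*) and 1 of the 6 neuronal genes (*Dcx*). Both *Foxq1* cKO samples were below wild-type in 2 microglial, 3 radial glia and astrocyte and 1 neuronal gene, and above in 1 (*Aqp4*). The microglial gene *Csf1r* had 3365 and 2579 normalized counts in wild-type against 1732 and 1587 in *Foxq1* cKO ECs (log2 fold change -0.83). *Gfap*, of the radial glia and astrocyte list, had 3073 and 2420 against 1081 and 1329 (log2 fold change -1.19). Mitochondrial carriers are made by all of these cells, and the part of these differences in the results for the carriers was not tested. In bulk samples, fewer cells of a type and less RNA per cell cannot be told apart.

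Together the 36 carriers took 0.201% and 0.186% of the reads on listed genes in wild-type ECs against 0.196% and 0.206% in *Foxq1* cKO ECs, so the 2 groups overlapped in their total. Single members ranged from 7 to 5505 reads in a sample. Divided by exon length, the level in wild-type ECs differed 318-fold between the most abundant carrier, *Slc25a5* (2324 normalized counts per kb), and the least abundant, *Slc25a28* (7.31 normalized counts per kb). The 5 most abundant carriers per length were *Slc25a5*, *Slc25a4*, *Slc25a39*, *Slc25a11* and *Slc25a1*. They held 63.1% and 61.6% of the family's length-corrected signal in wild-type ECs against 61.6% and 62.4% in *Foxq1* cKO ECs.

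**Figure D1:**
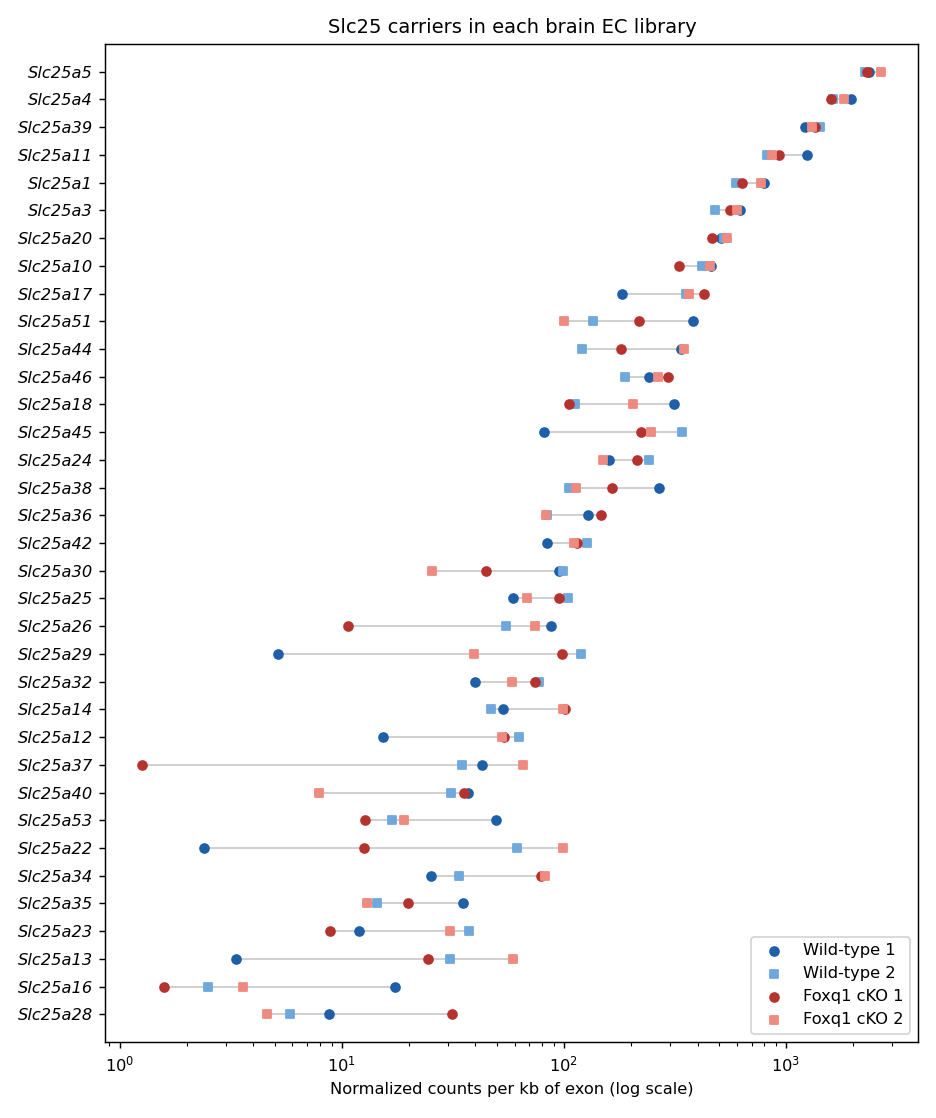
Level of 35 of the 36 listed Slc25 carriers in normalized counts per kb of exon (horizontal axis, log scale), ordered by the wild-type mean, with 1 point per sample and a grey line from the lowest to the highest sample. The points of the abundant carriers at the top lie close together, whereas *Slc25a37*, *Slc25a29* and *Slc25a22* further down have 1 sample far to the left of the others.

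To ask whether loss of FOXQ1 changes the set of carriers, each member was compared between *Foxq1* cKO and wild-type ECs with limma across all 12472 genes tested, on log2 of the normalized count plus 1. At an unadjusted p under 0.05, 1 of the 36 members passed (2.78%), beside 5.22% of all genes tested. It was lower in *Foxq1* cKO ECs, as were 3.05% of all genes tested, and 0 members were higher, beside 2.17%. This member was *Slc25a30*, a relative of the uncoupling proteins. After Benjamini-Hochberg adjustment over all genes tested, limma gave 0 members and 0 genes in all (0.0% of those tested) an adjusted p under 0.05. With 1 sample left out in turn, 28 of the 36 members changed sign in at least 1 fit. The log2 fold change of *Slc25a30* then ranged from -1.91 to -1.11.

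The family as a whole was centred near no difference. The median log2 fold change was 0.020 over the 36 members and 0.0086 over all genes tested, with 19 members above 0 and 17 below. In 5 members (13.9%) both *Foxq1* cKO samples lay on the same side of both wild-type samples, an arrangement found for 36% of all genes tested. They were *Slc25a14*, *Slc25a17*, *Slc25a34* and *Slc25a46*, which were higher in *Foxq1* cKO ECs (11.1%, beside 18% of all genes tested), and *Slc25a30*, which was lower (2.78%, beside 18%). In 4 of the 5 the log2 fold change was also at least 0.5 in size (11.1% of the members, beside 22.1% of all genes tested), with *Slc25a46* as the exception. An exact permutation test (two-sided) of any 1 gene in this design gives a p of 0.333 at the least.

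**Figure D2:**
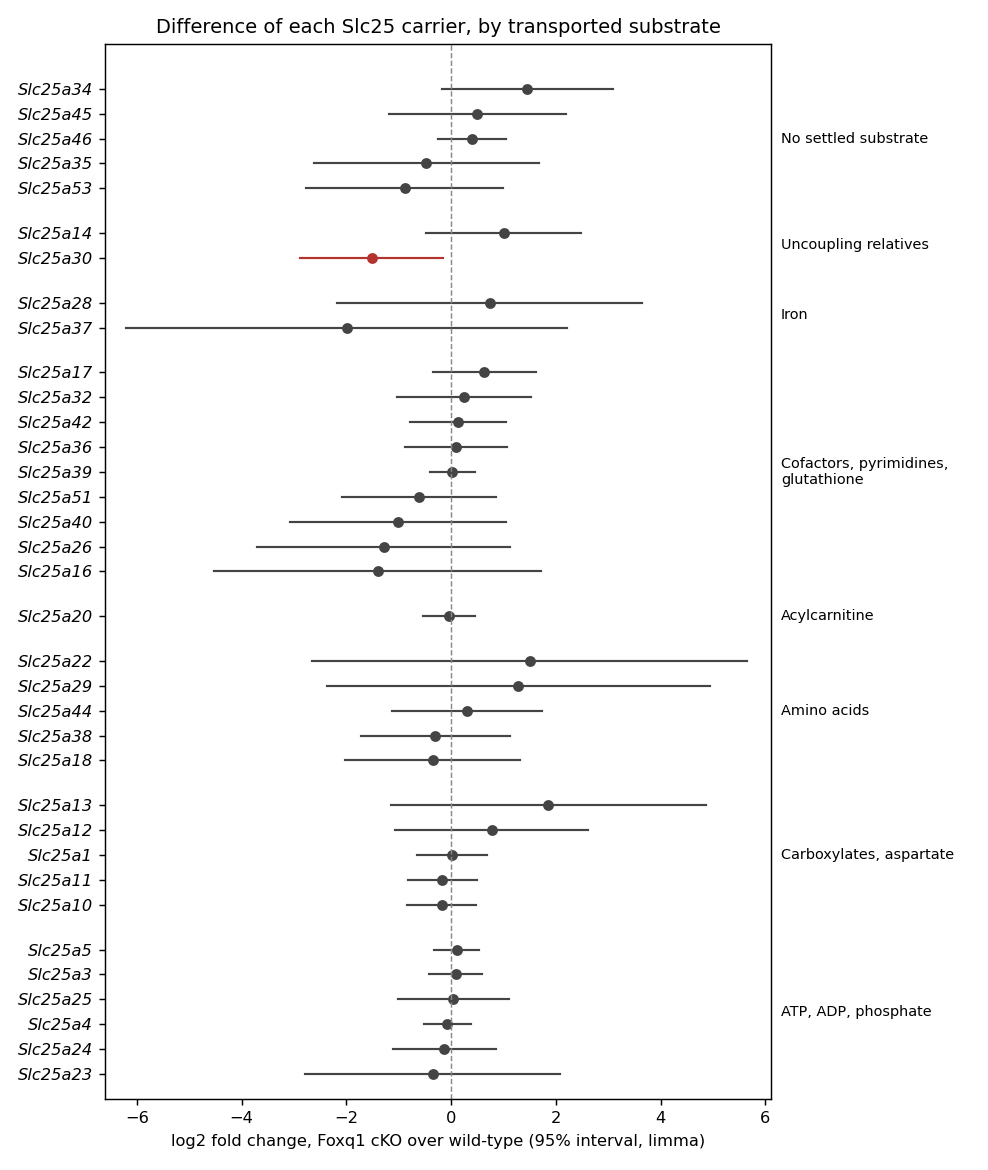
The log2 fold change of 35 of the 36 listed carriers between *Foxq1* cKO and wild-type ECs (horizontal axis, point) with its 95% interval from limma (line), grouped by the substrate that the carrier moves. Among those shown, only the interval of *Slc25a30*, in red, leaves out 0, and the narrowest intervals belong to abundant carriers such as *Slc25a5* and *Slc25a39*.

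Relatives of the uncoupling proteins resemble the proton leak protein of brown fat, and their substrates in vivo are less settled. Both listed relatives, *Slc25a30* and *Slc25a14*, had groups without overlap, *Slc25a30* with lower and *Slc25a14* with higher values in *Foxq1* cKO ECs. Groups without overlap were found for 36% of all genes tested, the share to set beside this and the later counts by substrate. *Slc25a30*, also called KMCP1 or UCP6, had 434 and 454 normalized counts in wild-type ECs against 205 and 117 in *Foxq1* cKO ECs, from 515, 455, 188 and 115 reads. The wild-type samples were close to each other, and both *Foxq1* cKO samples were below them. The means were 444 ± 13.9 (SD, n = 2) in wild-type ECs against 161 ± 62.00 (SD, n = 2) in *Foxq1* cKO ECs, so the *Foxq1* cKO mean was 36.2% of the wild-type mean. This gave a log2 fold change of -1.51 (95% interval -2.88 to -0.15, standard error 0.559), with an unadjusted p of 0.0347 and, after adjustment, an adjusted p of 0.857 from limma. The unadjusted p from limma was 0.0674 without wild-type 1, 0.0767 without wild-type 2 and 0.145 without *Foxq1* cKO 2, and 0.0423 without *Foxq1* cKO 1. In GRCm38 the gene spans 75760117 to 75787037 of chromosome 14 (minus strand), and it overlaps no other gene in the GENCODE M21 annotation.

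*Slc25a14*, also called UCP5 or BMCP1 and known for its expression in brain, had 126 and 111 normalized counts in wild-type ECs against 239.5 and 235 in *Foxq1* cKO ECs. Both pairs of replicates were tight, and the *Foxq1* cKO mean was 201% of the wild-type mean. On the log2 scale the difference was 1.003 (95% interval -0.48 to 2.49, standard error 0.609, unadjusted p = 0.150 from limma). The unadjusted p was 0.0248 with limma's eBayes without a trend, and it missed 0.05 in the other 7 alternatives that kept the 4 samples. Per kb of exon, *Slc25a14* was at 0.559 and 0.472 times the level of *Slc25a30* in wild-type ECs against 2.26 and 3.88 times in *Foxq1* cKO ECs. The order of these relatives was therefore turned around in both *Foxq1* cKO samples, a comparison chosen after their values were seen. *Slc25a14* lies on chromosome X (48623413 to 48662294, plus strand, GRCm38) and overlaps *Gm27828* on the same strand, so that some reads, and with them its ratio to *Slc25a30*, are uncertain. Of 5 sex-linked transcripts searched for, *Xist* among them, 0 were listed, and the part of the sexes of the embryos in the level of *Slc25a14* was not tested.

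The study describes GTTTC as a motif preferred at the FOXQ1 binding sites of its targets *Adck1* and *Hap1*. The windows from 250 bases before to 50 bases after each start site in RefSeq (GRCm38.p6) were therefore searched for GTTTC on both strands. Of the 36 members 28 had a window, and 10 of these 28 genes held the motif (35.7%), beside 48.9% of the 27025 genes with a window. The windows of *Slc25a30*, *Slc25a34* and *Slc25a17* did not hold it, and *Slc25a14* held it once in each of 2 of its 3 windows, which overlap in part. The longer forkhead motif TGTTTAC was found in 0 of the 28 genes and in 4.05% of all genes with a window. The stretches of *Slc25a14* are shown with the motif in capitals, the first motif starting 244 bases and the second 32 bases before the start site of its own window, because it is the only non-overlapping member with a log2 fold change of at least 0.5 in size whose windows hold the motif.
*Slc25a14*, chrX:48623198-48623220, plus strand, GRCm38.p6: ttctctGTTTCccttcggaaaag
*Slc25a14*, chrX:48623630-48623658, plus strand, GRCm38.p6: ttgaatttaatgGTTTCctttcattcgcg
A match describes the sequence only, and binding of FOXQ1 was not measured in these samples. The study mapped the binding of a tagged FOXQ1 in primary brain ECs by CUT&Tag, which locates a protein on DNA. Those data were not used here.

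Among the other members without overlap, *Slc25a34* had the largest log2 fold change. This carrier has no settled substrate. It had 67.4 and 89.7 normalized counts in wild-type ECs against 210.1 and 221 in *Foxq1* cKO ECs, from 80, 90, 193 and 217 reads, so that both *Foxq1* cKO samples were above both wild-type samples. Its log2 fold change was 1.46 (95% interval -0.18 to 3.10, standard error 0.671), with limma's unadjusted p at 0.0724, and at 0.0105 with eBayes without a trend. The gene spans 141618824 to 141623821 of chromosome 4 (minus strand, GRCm38). *Slc25a17*, the peroxisomal carrier for coenzyme A, FAD and NAD, had 519 and 1007 normalized counts in wild-type ECs against 1212 and 1043 in *Foxq1* cKO ECs. Its groups did not overlap, but wild-type 2 was almost at the level of the *Foxq1* cKO samples. Its log2 fold change of 0.64 (95% interval -0.34 to 1.61, unadjusted p = 0.163 from limma) became 0.16 without wild-type 1 and 1.11 without wild-type 2, where the unadjusted p from limma was 0.0223. *Slc25a46*, an outer membrane protein tied to mitochondrial fusion and lipid transfer rather than to a known substrate, had 1307 and 1023 normalized counts in wild-type ECs against 1598 and 1446 in *Foxq1* cKO ECs, and its log2 fold change was 0.39 (95% interval -0.25 to 1.04, unadjusted p = 0.187 from limma).

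**Figure D3:**
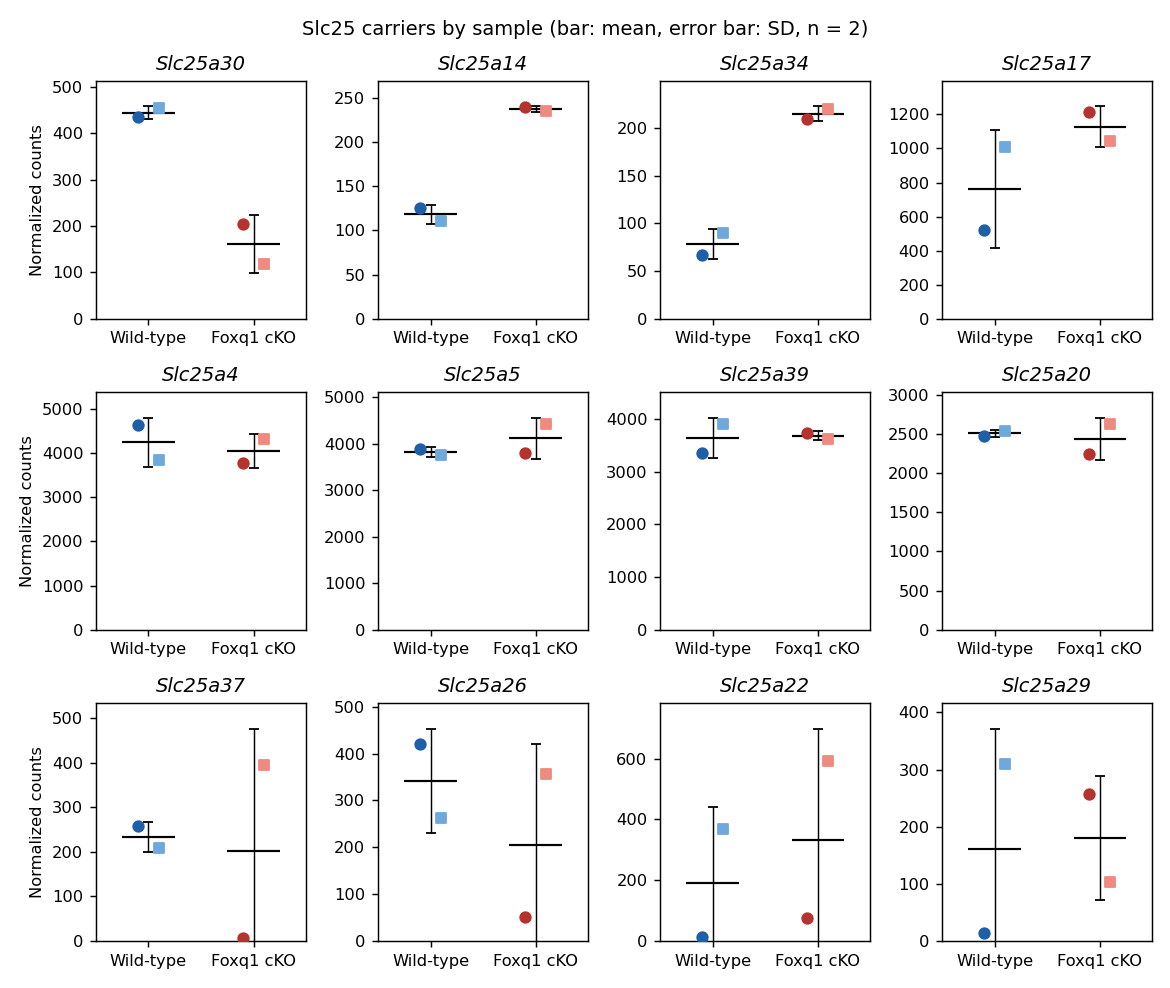
Normalized counts of 12 carriers in each sample (points), with the mean (bar) and SD (error bar, cut at 0 in the bottom row) of the 2 samples per group, each panel with its own axis from 0. The top row shows members whose groups did not overlap, the middle row abundant carriers whose groups overlapped, and the bottom row carriers with at least 1 sample far from its replicate.

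The carriers at the centre of ATP supply were among the most abundant, and their groups overlapped. *Slc25a4* and *Slc25a5* encode adenine nucleotide translocases, ANT1 and ANT2, which exchange matrix ATP for cytosolic ADP, and *Slc25a3* encodes the phosphate carrier that supplies ATP synthase. *Slc25a4* had 4639 and 3852 normalized counts in wild-type ECs against 3768 and 4308 in *Foxq1* cKO ECs, and *Slc25a5*, an X-linked gene, had 3899 and 3751 against 3807 and 4433. In both genes the *Foxq1* cKO values overlapped the wild-type values. Their log2 fold changes were -0.069 (95% interval -0.52 to 0.38) and 0.10 (95% interval -0.32 to 0.53). In these intervals the *Foxq1* cKO level lies between 69.6% and 130.47% of wild-type for *Slc25a4* and between 80.0% and 144.27% for *Slc25a5*. Per kb of exon, *Slc25a4* was at 0.832 and 0.718 times *Slc25a5* in wild-type ECs against 0.692 and 0.680 times in *Foxq1* cKO ECs. By this measure ANT2 transcripts were the more abundant in all 4 samples. In normalized counts, which are not divided by length, *Slc25a4* was the higher in both wild-type samples and *Slc25a5* in both *Foxq1* cKO samples. Reads on *Slc25a5* may be shared with the pseudogene *Slc25a5-ps*, which leaves the ratio between these genes uncertain. *Slc25a3* had 3447 and 2664 normalized counts in wild-type ECs against 3118 and 3342 in *Foxq1* cKO ECs, with a log2 fold change of 0.091 (95% interval -0.41 to 0.60), and its isoforms were not separated.

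The remaining listed members of this group are calcium-regulated ATP-Mg and phosphate carriers, which adjust the total adenine nucleotide content of the matrix. *Slc25a24* had 546 and 825 normalized counts in wild-type ECs against 729 and 514 in *Foxq1* cKO ECs. *Slc25a25* had 462 and 824 against 749 and 539, and in both groups the replicates of these 2 genes were further apart than the group means. *Slc25a23* had 63.2 and 198 against 46.8 and 163, the lowest level of the 3, and sample 2 of each group was more than 3 times sample 1. Of the 6 listed members of the nucleotide and phosphate group, 0 had groups without overlap, and their log2 fold changes ran from -0.35 to 0.10.

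Carriers of carboxylates and aspartate link the tricarboxylic acid cycle to the cytosol. *Slc25a1*, the citrate carrier that exports carbon for lipid synthesis, had 1727 and 1294 normalized counts in wild-type ECs against 1375 and 1668 in *Foxq1* cKO ECs. *Slc25a10*, the dicarboxylate carrier, had 1596 and 1452 against 1145 and 1573, and *Slc25a11*, the oxoglutarate carrier of the malate-aspartate shuttle, had 2648 and 1736 against 1967 and 1839. Their log2 fold changes were 0.019, -0.18 and -0.17, and the groups overlapped for each. The aspartate and glutamate carriers of the same shuttle, which bind calcium on the outer face of the membrane, were less even. *Slc25a12* (aralar) had 112 and 464 normalized counts in wild-type ECs against 395 and 386 in *Foxq1* cKO ECs, so wild-type 1 alone was low. *Slc25a13* (citrin) had 12.6 and 117 against 92.5 and 224, and its log2 fold change of 1.86 had an interval from -1.15 to 4.86 (unadjusted p = 0.182 from limma). Without wild-type 2 the log2 fold changes of *Slc25a12* and *Slc25a13* were 1.79 and 3.41, with unadjusted p-values of 0.0237 and 0.0158, and without wild-type 1 they were -0.25 and 0.30. Of the 5 calcium-binding members (*Slc25a12*, *Slc25a13*, *Slc25a23*, *Slc25a24* and *Slc25a25*), 0 passed an unadjusted p of 0.05 and 0 had groups without overlap, and their summed level was 1196 and 2429 normalized counts in wild-type ECs against 2013 and 1825 in *Foxq1* cKO ECs.

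*Slc25a20*, which carries acylcarnitines into the matrix for fatty acid oxidation, was among the steadiest members. It had 2469.7 and 2537 normalized counts in wild-type ECs against 2242 and 2626 in *Foxq1* cKO ECs, with a log2 fold change of -0.045 (95% interval -0.54 to 0.45). The amino acid carriers varied more. *Slc25a44*, a carrier of branched-chain amino acids, had 1212 and 434 normalized counts in wild-type ECs against 644 and 1247 in *Foxq1* cKO ECs, and *Slc25a38*, the glycine carrier that feeds heme synthesis, had 736 and 290.1 against 452 and 310.3. The glutamate carrier *Slc25a18* had 599.9 and 214 against 202 and 389.6, while its paralog *Slc25a22* had 14.3 and 368 against 75.1 and 591, a 25.7-fold difference between the wild-type samples. *Slc25a29*, a carrier of basic amino acids, had 13.5 and 310.1 against 257 and 103, a 23-fold difference between the wild-type samples. The intervals of *Slc25a22* and *Slc25a29* ran from -2.66 to 5.65 and from -2.38 to 4.95, which spans large differences in both directions. All 5 listed amino acid carriers had overlapping groups.

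Of the 10 listed carriers of cofactors, pyrimidine nucleotides and glutathione, 1 had groups without overlap, *Slc25a17*. *Slc25a39*, which brings glutathione into mitochondria, was the third most abundant carrier per length and had 3363 and 3911 normalized counts in wild-type ECs against 3739.5 and 3626 in *Foxq1* cKO ECs, with a log2 fold change of 0.022 (95% interval -0.41 to 0.46). Its paralog *Slc25a40* had 312 and 261 against 299 and 66.1, with *Foxq1* cKO 2 alone low. *Slc25a51*, the carrier of NAD, had 2099.8 and 743 normalized counts in wild-type ECs against 1199.7 and 550.3 in *Foxq1* cKO ECs, and in both groups sample 1 was more than 2 times sample 2. *Slc25a42*, a carrier of coenzyme A, had 502 and 764 against 686 and 666. The pyrimidine nucleotide carrier *Slc25a36* had 1229 and 805 against 1409.8 and 799.6 and *Slc25a32*, linked to folate and FAD, had 242 and 469.6 against 452 and 354. The groups overlapped in each of these genes. *Slc25a26*, the carrier of S-adenosylmethionine, had 420.5 and 263 normalized counts in wild-type ECs against 51.2 and 357 in *Foxq1* cKO ECs, with *Foxq1* cKO 1 far below the others. Without *Foxq1* cKO 2 its log2 fold change was -2.68 and its unadjusted p 0.0304, and without *Foxq1* cKO 1 the log2 fold change was 0.10. *Slc25a16*, for which coenzyme A transport has been proposed, had 83.4 and 11.96 against 7.62 and 17.3 and rests on 7 to 99 reads.

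Mitoferrins carry iron into the matrix for heme and iron-sulfur clusters. *Slc25a37* (mitoferrin 1), which is abundant in erythroid cells, had 258 and 209 normalized counts in wild-type ECs against 7.62 and 396 in *Foxq1* cKO ECs, from 306, 210, 7 and 389 reads. *Foxq1* cKO 1 was thus nearly without this transcript, whereas *Foxq1* cKO 2 was the highest of the 4. The log2 fold change of -1.996 had an interval from -6.21 to 2.22, and it was -4.76 with an unadjusted p of 0.00835 without *Foxq1* cKO 2 and 0.77 without *Foxq1* cKO 1. The erythroid gene *Alas2*, which starts heme synthesis, had 2707 and 2015 normalized counts in wild-type ECs against 1686 and 2029 in *Foxq1* cKO ECs. *Hba-a1*, an alpha-globin gene, had 11927 and 9021 against 9108 and 11133. *Slc25a28* (mitoferrin 2), the form found in most cells, had 32.9 and 21.9 against 118 and 17.3, again with *Foxq1* cKO 1 apart, here as the highest. Per kb of exon, *Slc25a37* was at 4.89 and 5.94 times *Slc25a28* in wild-type ECs against 0.0404 and 14.2 times in *Foxq1* cKO ECs, so the replicates of the *Foxq1* cKO group differed more than the groups did.

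The other members have no settled substrate. *Slc25a45* had 225 and 940.1 normalized counts in wild-type ECs against 617 and 685 in *Foxq1* cKO ECs, with wild-type 1 alone low. *Slc25a53*, an X-linked gene, had 396 and 134 against 101 and 153, and *Slc25a35* had 129 and 52.8 against 72.9 and 47.8, and in both genes wild-type 1 was the highest sample. None of these 3 passed an unadjusted p of 0.05 in limma.

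How far the carriers could be compared depended on their level, as it did for all genes tested. The standard errors below are partly set by the method. In eBayes with a trend, the variance of each gene is drawn toward that of genes at a similar level. For the 11 members with a mean of at least 1000 normalized counts, the median standard error of the log2 fold change was 0.266. It was 0.253 for all genes tested at that level. In 8 of the 11 the 95% interval lay between -1 and 1 on the log2 scale (72.7%, beside 66.8% of all genes tested at that level). For the 25 members under that level the median standard error was 0.694, beside 0.657 for all genes tested there. In 0 of these members the interval lay within that range, beside 3.71% of all genes tested under that level. All 10 members with a log2 fold change of at least 1 in size belonged to these 25. In 10 of the 36 members (27.8%) the replicates of at least 1 group differed by more than 4-fold, which was true of 15.2% of all genes tested. Among members under a mean of 1000 this was 40%, beside 21.8% of all genes tested under that level.

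**Figure D4:**
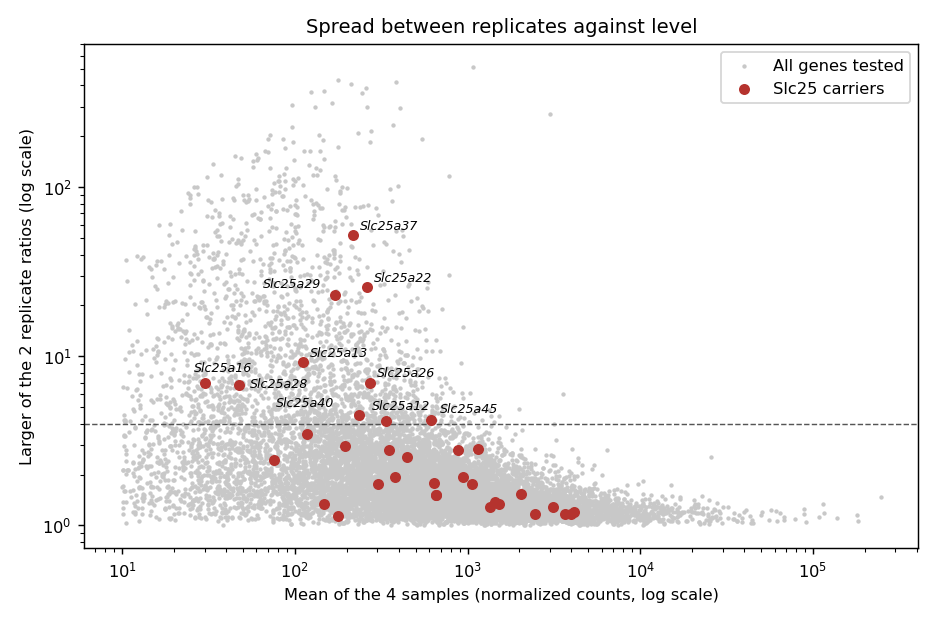
For each gene tested, the mean of the 4 samples in normalized counts (horizontal axis, log scale) and the larger of the 2 ratios between replicates of a group (vertical axis, log scale), with all genes in grey and 35 of the 36 carriers in red. The 10 named carriers lie above the dashed line at 4, and each has a mean under 1000 normalized counts.

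In 5 members 1 sample lay at least 4-fold below the next lowest, namely *Slc25a13*, *Slc25a22* and *Slc25a29* in wild-type 1 and *Slc25a26* and *Slc25a37* in *Foxq1* cKO 1. This was 13.9% of the members, beside 7.55% of all genes tested. Wild-type 1, the most deeply sequenced sample, was the lowest of the 4 samples for 12 members (33.3%) and the highest for 13 (36.1%), beside 29.6% and 30.4% of all genes tested. In 14 of the 36 members the annotated gene overlaps another gene on the opposite strand, and in 6 it overlaps one on the same strand. Whether counting used the strand is not given in the sources used here, and for these genes it is uncertain which gene some reads came from.

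Carriers of the same family that bear other names were examined beside the members. *Ucp2*, an uncoupling protein that exports carboxylates from the matrix, had 9100.3 and 7341 normalized counts in wild-type ECs against 5984 and 6871 in *Foxq1* cKO ECs and a log2 fold change of -0.35 (unadjusted p = 0.0866 from limma). *Mtch2*, an insertase of the outer membrane, had 1887 and 2154 against 2657 and 2915, with a log2 fold change of 0.46 (unadjusted p = 0.0626 from limma), and its relative *Mtch1* had 511 and 436 against 728 and 674. The groups did not overlap in any of the 3, as in 36% of all genes tested, and 0 passed an unadjusted p of 0.05. *Ucp1* and *Ucp3* were not analysed here.

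Other routes across the mitochondrial membranes gave 1 gene at an unadjusted p under 0.05 among 14 (5.22% of all genes tested passed), *Sfxn5*, a sideroflexin of the inner membrane. It had 1349 and 1842 normalized counts in wild-type ECs against 677 and 1098 in *Foxq1* cKO ECs, a log2 fold change of -0.87 (standard error 0.349, unadjusted p = 0.0464 and adjusted p = 0.857 from limma). The pyruvate carrier subunit *Mpc2* had 1234 and 1087 against 1045 and 1205, the porin *Vdac1* had 1499.9 and 1245 against 1214 and 1437, and the median log2 fold change of the 14 genes was -0.038. In 3 of the 14 both *Foxq1* cKO samples were above wild-type, with log2 fold changes of 0.41 for *Sfxn2*, 0.14 for *Vdac3* and 0.091 for *Tspo*, and in 1 both were below, beside 18% of all genes tested in each direction.

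Carriers reach the inner membrane through the receptor TOMM70, the small TIM chaperones and the TIM22 complex. Of 14 listed genes of this import route, 0 passed an unadjusted p of 0.05, 4 had both *Foxq1* cKO samples above and 2 had both below the wild-type samples (18% of all genes tested in each direction), and the median log2 fold change was 0.079. *Tomm70a*, the receptor, had 415 and 497 normalized counts in wild-type ECs against 802 and 717 in *Foxq1* cKO ECs (log2 fold change 0.74, unadjusted p = 0.0862 from limma). The chaperone *Timm9* had 727 and 678 against 415 and 384 (log2 fold change -0.81, unadjusted p = 0.0695 from limma), and *Timm22*, the insertion pore, had 1233 and 1640.0 against 840.4 and 982 (log2 fold change -0.65, unadjusted p = 0.0677 from limma). *Agk*, another TIM22 subunit, had 132 and 291 against 348 and 313, *Tomm7* had 160.1 and 151 against 273 and 231 and *Timm10b* had 60.7 and 134 against 174 and 180.1, each with both *Foxq1* cKO samples above wild-type.

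Among 19 listed enzymes that act next to a carrier, 0 passed an unadjusted p of 0.05, 9 had both *Foxq1* cKO samples below and 1 had both above wild-type (18% of all genes tested in each direction), and the median log2 fold change was -0.22. *Nadk2*, which makes NADP in mitochondria, had 677 and 485 normalized counts in wild-type ECs against 354 and 263 in *Foxq1* cKO ECs, the largest difference of the list (log2 fold change -0.91, unadjusted p = 0.0906 from limma). *Cpt1a*, which makes the acylcarnitines that *Slc25a20* transports, had 6060.1 and 4658 against 4509 and 4471. *Mdh1*, a cytosolic enzyme of the malate-aspartate shuttle, had 5275 and 5550.0 against 4676 and 4745. *Crat*, carnitine acetyltransferase, was the 1 gene with both *Foxq1* cKO samples above wild-type, at 884 and 1368 against 1429 and 1694. The other genes with both below were *Got1*, *Fech*, *Glud1*, *Bcat2*, *Mat2a* and *Gpd2*, with log2 fold changes between -0.42 for *Bcat2* and -0.18 for *Mat2a*.

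**Figure D5:**
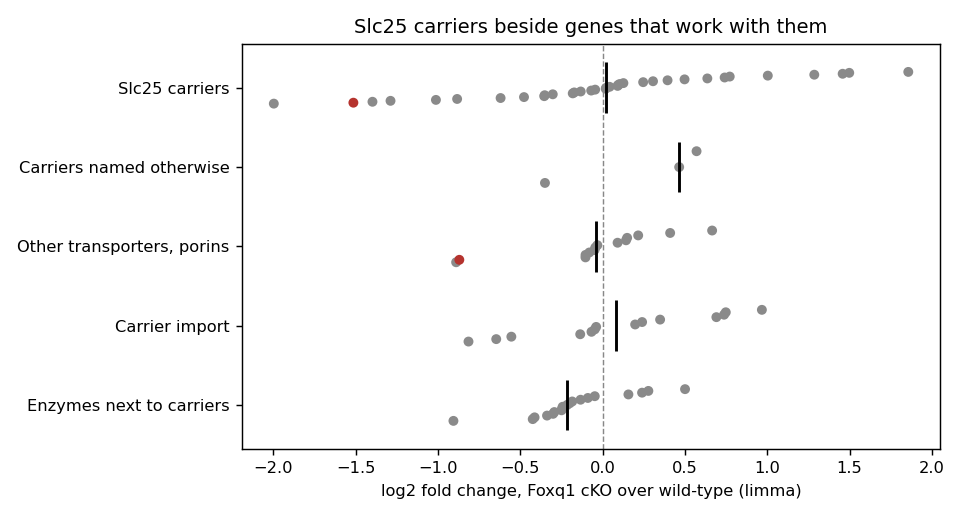
The log2 fold change between *Foxq1* cKO and wild-type ECs (horizontal axis) of 35 of the 36 listed Slc25 carriers and of each gene in 4 lists around the family, with 1 point per gene, red where the unadjusted p from limma was under 0.05, and a black line at the median of each whole list. *Slc25a30* and *Sfxn5* are the red points, and the enzymes next to carriers have a median of -0.22.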

How the data were processed

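The 4 RNA-seq samples, 2 per group, were grouped by their titles. The authors deposited normalized counts, a signal per gene, in 1 table of 1207361 lines with repeated rows, which were reduced to 12693 symbols (8 of them with several identifiers). Per the labels, the submitters' processing notes name TopHat2 2.0.12, Bowtie2 2.2.3, HTSeq 0.6.0 and mm9, while the annotation used is not given in the sources used here. Each deposited value (100% per sample, tolerance 0.01) was a multiple of the smallest step in its sample, and this step was taken as 1 read. Each listed gene had at least 1 read in every sample, so complete losses could not be measured.

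Group differences were tested with limma 3.58.1 in R 4.3.3 (lmFit, eBayes with a trend) on log2 of the value plus 1, which understates changes of low genes, for the 12472 genes whose mean reached 10, with Benjamini-Hochberg adjustment. The procedure was run on simulated data with a single setting for the spread between replicates. In these samples the spread differed by gene, so the simulation does not show how the test performs on them. Exon lengths, gene positions and overlaps came from GENCODE M21 (GRCm38), matched by identifier for 12678 of the 12693 symbols, and start site windows came from RefSeq (GRCm38.p6). Both differ in build from the notes, and no coordinates were converted. Tables were made with pandas 2.3.3 in Python 3.11.15 and figures with matplotlib 3.10.9. The members and lists were chosen with earlier results of these data known. Values per sample were given for members with an unadjusted p under 0.05, members without overlap and a log2 fold change of at least 0.5, the 5 highest per length, paralog groups and, beyond that rule, other members. For 1 member the values are not reported here, and it is included in the counts and medians. The alternatives were pseudocounts of 0.1 and 5, no filter and a minimum mean of 50, TMM scaling without weights, quantile normalization, eBayes without a trend, the replicate number as a block and each sample left out in turn.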

Additional observations from a re-analysis of the deposited data

How the results depend on the processing

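The number of members at an unadjusted p under 0.05 was 3 with eBayes without a trend, where *Slc25a14* and *Slc25a34* joined *Slc25a30*. In that fit 675 of the 12472 genes tested passed, beside 651 in the main fit. The number of members was 1 in the other 7 alternatives that kept the 4 samples, where 592 to 693 of all genes passed. With a sample left out, the lone sample of its group is assumed to vary like the other group. In every fit run, 0 members passed 0.05 after adjustment. With the replicate number as a block the number at an unadjusted p under 0.05 was 1, and the p of *Slc25a30* was 0.0499. Over all genes the smallest adjusted p from limma was 0.056 with this block, beside 0.857 in the main fit. The labels do not say that a number marks a shared embryo or batch. The correlation of same-numbered deviations across genes was 0.032. With 2 samples per group this cannot decide whether same-numbered samples share a litter or batch, which was not tested. The median log2 fold change of the family was between 0.012 and 0.033 with 4 samples and between -0.055 and 0.086 with a sample left out. Under quantile normalization the log2 fold changes of *Slc25a4* (0.017) and *Slc25a20* (0.030) changed sign, both near 0, and the cause was not tested. Over 8 alternatives with 4 samples, 282 of 286 values for single members kept their direction and stayed on their side of 0.05.

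When single samples were omitted, 28 of 36 members changed sign in at least 1 fit. Among those given by name, log2 fold changes ranged from -0.19 to 0.23 for *Slc25a1*, -0.095 to 0.28 for *Slc25a3*, -0.20 to 0.065 for *Slc25a4*, -0.0064 to 0.21 for *Slc25a5*, -0.41 to 0.047 for *Slc25a10*, -0.48 to 0.13 for *Slc25a11*, -0.25 to 1.79 for *Slc25a12*, -1.09 to 0.39 for *Slc25a18*, -0.16 to 0.069 for *Slc25a20*, -0.80 to 3.79 for *Slc25a22*, -1.24 to 0.53 for *Slc25a23*, -0.43 to 0.16 for *Slc25a24*, -0.38 to 0.46 for *Slc25a25*, -2.68 to 0.10 for *Slc25a26*, -0.61 to 2.09 for *Slc25a28*, -0.93 to 3.50 for *Slc25a29*, -0.23 to 0.72 for *Slc25a32*, -1.11 to 0.16 for *Slc25a35*, -0.31 to 0.50 for *Slc25a36*, -4.76 to 0.77 for *Slc25a37*, -0.97 to 0.37 for *Slc25a38*, -0.087 to 0.13 for *Slc25a39*, -2.09 to 0.069 for *Slc25a40*, -0.18 to 0.43 for *Slc25a42*, -0.43 to 1.05 for *Slc25a44*, -0.53 to 1.53 for *Slc25a45* and -1.37 to 0.13 for *Slc25a51*. Of the 8 members that kept their sign in all fits run, 5 had groups without overlap, for which the sign cannot change when a sample is left out. The planned count tests were not run, because a check of recovered reads could not be passed for wild-type 2, whose value of 1 read (0.997) lies close to 1. Standard errors were larger for carriers under a mean of 1000 normalized counts, as over all genes tested. The trend with level in eBayes sets part of this, and the part of depth was not tested.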
